A study of Homo sapiens with 4 samples.

Results

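Keratin genes were taken as all symbols in the gene lists made of KRT, a number and at most 1 further letter, which leaves out the keratin-associated proteins. This rule gave 55 of 33694 genes, of which 29 encode type I and 26 encode type II keratins. They were followed in OVCA420, an epithelial ovarian cancer cell line, by droplet-based 10x Genomics single-cell RNA-seq of the 3′ ends of transcripts. Cells were untreated (Ctrl) or had received 10 ng/mL TGF-β1, a cytokine that induces epithelial-mesenchymal transition (EMT), for 1 day (1-day), 3 days (3-day) or 7 days (7-day). All groups were the same line grown in DMEM with 10% fetal bovine serum, and each group is 1 library, so that a time point and its library cannot be told apart.

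Keratins are the intermediate filament proteins of epithelial cells. An acidic type I and a basic type II keratin assemble as an obligate pair, and the pairs differ by tissue: *KRT8* and *KRT18*, with *KRT7* and *KRT19*, in simple epithelia such as those of the ovary and its carcinomas, *KRT5* with *KRT14* or *KRT15* in basal layers, and *KRT4* with *KRT13* in internal stratified epithelia. *KRT6A*, *KRT6B*, *KRT16* and *KRT17* are the keratins of wounded, stressed or regenerating epithelium, and a large further group forms hair and its inner root sheath. Loss of keratins, often with gain of the mesenchymal filament protein vimentin, is a textbook feature of EMT.

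Levels are given as CPM, the UMIs (unique molecular identifiers, 1 per captured transcript) of a gene scaled to a library total of 1000000, summed over 933 Ctrl, 937 1-day, 705 3-day and 569 7-day cells with 25382817 to 32949874 UMIs per library. As 1 UMI stands for 1 captured 3′ end, these levels are not divided by gene length and can be compared between genes as captured molecules. Intervals are exact 95% intervals that cover counting error only, and 1 library per group allows no test or p-value. Where a library had no UMI, a fold was set against a floor of 3 UMIs, which is smaller than the exact upper limit of a count of 0, and calls used the exact limit. A gene was called higher or lower where the whole interval of its log2 ratio lay beyond 2-fold, among 17934 genes with more than 3 UMIs in at least 1 library. Median depth per cell was 30270 UMIs for Ctrl and 32393, 43553 and 43382 UMIs for 1-day, 3-day and 7-day, and the share of cells in G1 was 27.6%, 74.7%, 50.9% and 39.7% in the same order. Of 7 ovarian epithelial markers, *EPCAM* (297 to 361 CPM), *CLDN4* (203 to 306) and *CDH1* (75.7 to 119) bore out the epithelial label and were not called. *ELF3* and *MUC16* were called lower than Ctrl at each time, *MUC16* at 89 UMIs in Ctrl and then 14, 4 and 5. The ovarian markers *PAX8* (at most 0.33 CPM) and *WT1* (no UMI) were absent or nearly so. Markers of leukocytes, fibroblasts, endothelium and smooth muscle summed to 0.315 to 14.1 CPM per list, with *PTPRC*, *CD3E*, *COL1A2* and *CLDN5* at 0 to 2 UMIs per library. Other members of these lists were detected. *CDH5*, an endothelial cadherin, fell from 161 UMIs in Ctrl to 13, 7 and 8 and was called lower at each time. *LUM*, a fibroblast marker, had 33, 20, 16 and 2 UMIs and was called lower at 7-day. The leukocyte genes *CD79A* (84, 89, 128 and 200 UMIs) and *CD68* (46, 99, 152 and 157) were called higher at 7-day, *CD68* also at 3-day. Their part in the keratin values was not tested. Each pair of libraries shared 1 to 7 cell barcodes, at most 1.23% of the smaller library.

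Of the 55 keratins, 29 were expressed (14 type I, 15 type II) and 15 of these reached 10 CPM in at least 1 library. The levels fell into 3 tiers. The genes *KRT7*, *KRT8*, *KRT10*, *KRT17*, *KRT18* and *KRT19* stayed between 346 and 2546 CPM in every library, and the best rank of each among all genes in any library lay between 65 and 178. A middle tier, *KRT4*, *KRT6A*, *KRT13*, *KRT14*, *KRT15*, *KRT20*, *KRT75*, *KRT80* and *KRT81*, peaked between 13.5 and 93.8 CPM. The remaining 14 expressed keratins, *KRT3*, *KRT6B*, *KRT6C*, *KRT9*, *KRT16*, *KRT31*, *KRT32*, *KRT33B*, *KRT34*, *KRT76*, *KRT78*, *KRT79*, *KRT83* and *KRT86*, peaked between 0.121 and 7.13 CPM.

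The other 26 keratins had 3 or fewer UMIs in every library and were not expressed, 17 of them with no UMI in any library. The 26 comprised the epidermal keratins *KRT1*, *KRT2* and *KRT77*, the corneal *KRT12*, the basal *KRT5*, and *KRT23* and *KRT24*. The rest were hair and inner root sheath keratins (*KRT25*, *KRT26*, *KRT27*, *KRT28*, *KRT33A*, *KRT35*, *KRT36*, *KRT37*, *KRT38*, *KRT39*, *KRT40*, *KRT71*, *KRT72*, *KRT73*, *KRT74*, *KRT82*, *KRT84* and *KRT85*) and the truncated keratin *KRT222*. *KRT5*, the usual partner of *KRT14*, had at most 1 UMI in any library although *KRT14* itself was expressed. Likewise *KRT1*, the epidermal partner of *KRT10*, had no UMI beside 709 CPM or more of *KRT10*. *KRT10* is thus present without its epidermal partner, and *KRT14* without its basal one.

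Promoter sequences are shown for 4 keratins that stand for the patterns described further on: *KRT75*, which appeared only in treated libraries, *KRT4* and *KRT20*, which were nearly lost, and *KRT10*, which kept its level. They are from RefSeq (GRCh38.p14), 250 bases before to 50 after the start site, read 5′ to 3′ on the gene's strand. Capitals mark matches on either strand to an AP-1 site (TGANTCA), the E-box bound by ZEB and SNAI factors (CACCTG), a TEAD site (GGAATG), a GC-rich SMAD site (GGCGCC) or a TATA box (TATAAA).

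KRT75 (chr12:52434322-52434621, minus strand): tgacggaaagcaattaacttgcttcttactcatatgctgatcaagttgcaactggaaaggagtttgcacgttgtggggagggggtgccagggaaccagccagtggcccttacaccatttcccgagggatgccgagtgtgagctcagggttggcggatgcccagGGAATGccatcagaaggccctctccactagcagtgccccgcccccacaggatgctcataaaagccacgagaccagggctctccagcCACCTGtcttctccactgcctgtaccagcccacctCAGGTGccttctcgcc

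KRT4 (chr12:52814067-52814366, minus strand): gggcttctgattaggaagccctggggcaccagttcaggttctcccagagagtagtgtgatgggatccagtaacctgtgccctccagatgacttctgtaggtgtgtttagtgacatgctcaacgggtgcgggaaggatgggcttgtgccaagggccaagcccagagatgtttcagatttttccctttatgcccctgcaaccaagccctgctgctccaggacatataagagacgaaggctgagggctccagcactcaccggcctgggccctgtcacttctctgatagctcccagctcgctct

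KRT20 (chr17:40885193-40885492, minus strand): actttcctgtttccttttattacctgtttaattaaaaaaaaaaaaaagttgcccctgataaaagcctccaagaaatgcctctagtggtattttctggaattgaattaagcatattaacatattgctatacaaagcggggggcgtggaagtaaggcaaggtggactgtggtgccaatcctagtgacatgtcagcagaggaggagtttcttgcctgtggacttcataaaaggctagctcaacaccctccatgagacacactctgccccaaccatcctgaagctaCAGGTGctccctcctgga

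KRT10 (chr17:40822565-40822864, minus strand): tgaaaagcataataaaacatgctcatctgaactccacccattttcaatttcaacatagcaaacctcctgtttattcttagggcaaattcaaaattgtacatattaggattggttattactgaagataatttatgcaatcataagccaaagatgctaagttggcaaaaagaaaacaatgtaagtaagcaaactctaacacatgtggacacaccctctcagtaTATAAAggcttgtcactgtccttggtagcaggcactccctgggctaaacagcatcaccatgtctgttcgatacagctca

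The *KRT75* window held 3 matches, a TEAD site at −87 and E-boxes at −1 and 35 from the start site. That of *KRT20* held an E-box at 33, that of *KRT10* a TATA box at −29, and that of *KRT4* none of these letters. Among 35116 promoters of the same length, an AP-1 match was found in 7.71%, the E-box in 20.6%, the TEAD site in 14%, the SMAD site in 19.2% and the TATA box in 11.5%, so that each of these matches is common. A promoter entry was found for 34 of the 55 keratins and for 13 of the 29 expressed. Of the 15 at 10 CPM or more, 10 had none (*KRT6A*, *KRT7*, *KRT13*, *KRT14*, *KRT15*, *KRT17*, *KRT18*, *KRT19*, *KRT80* and *KRT81*), and the entry for *KRT8* began 23.5 kb inside the annotated gene and is not printed.

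Keratins were called in both directions from the first day on. At 1-day, 9 of the 29 expressed keratins were higher than in Ctrl (*KRT6B*, *KRT7*, *KRT14*, *KRT16*, *KRT17*, *KRT31*, *KRT75*, *KRT79* and *KRT80*), where 5.99% of all genes tested were, and 4 were lower (*KRT4*, *KRT13*, *KRT15* and *KRT20*), where 5.54% of all genes were. At 3-day, 8 were higher, with *KRT81* called and *KRT79* and *KRT80* no longer so, against 6.65% of all genes, and 5 were lower, now with *KRT19*, against 5.17%. At 7-day, 8 were higher, with *KRT34* added and *KRT14* no longer called, against 7.96% of all genes, and the same 4 as at 1-day were lower, against 4.5%. The median log2 ratio of the expressed keratins was 0.74, 0.56 and 0.54 at the 3 times, beside −0.08, −0.04 and 0.06 over all genes tested. Among keratins at 10 CPM or more it was 0.48, 0.56 and 0.10, beside −0.05, 0.05 and 0.11 over all genes at that level. At 7-day these keratins thus had no higher median than all genes of like level. All of these comparisons share the Ctrl library. *KRT6B*, *KRT33B*, *KRT34*, *KRT75*, *KRT76* and *KRT79* had no UMI in Ctrl and counted as expressed through treated libraries alone. The same held for *KRT3*, *KRT6C* and *KRT31*, which had 3 or fewer UMIs in Ctrl. All of these could therefore be called higher than Ctrl but not lower, as could any such gene among all genes tested. In the keratin medians above, a gene with a UMI in the treated library but none in Ctrl counted as the largest ratio. A gene with a UMI in Ctrl alone counted as the smallest, and 1 with none in either was left out. Keratins without a Ctrl UMI thus raised these medians by the way they were counted. In all, 11 keratins were called higher at some time, 5 lower at some time and none in both directions, and 13 were never called. The like shares over all genes, taken over the 3 times together, were not counted, so these numbers have no measure beside them.

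**Figure D1:**
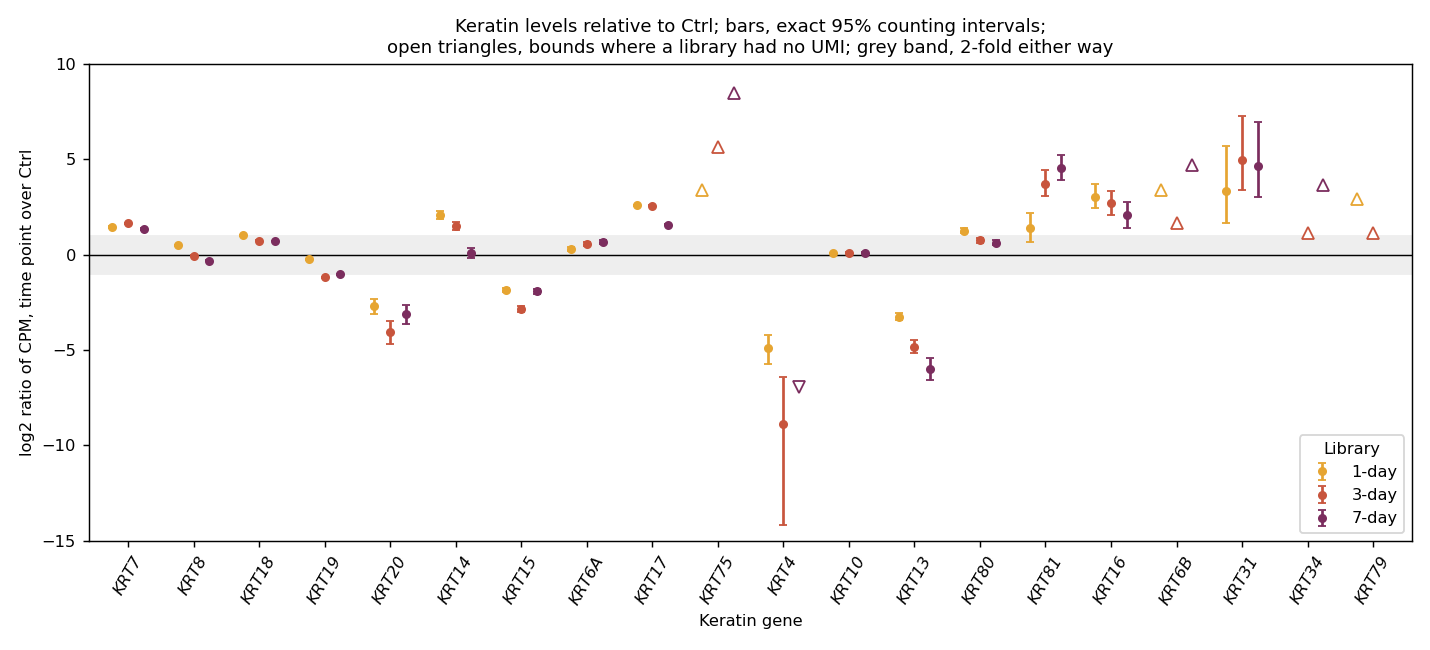
Log2 ratio of CPM to Ctrl (vertical axis) at 1-day, 3-day and 7-day for the 15 keratins that reached 10 CPM and 5 of lower level. Points are ratios with exact 95% counting intervals, open triangles are bounds where a library had no UMI, and the grey band is 2-fold either way; *KRT75* stands at 354-fold above the floor of 3 UMIs at 7-day, and *KRT4*, *KRT13*, *KRT15* and *KRT20* lie below the band at every time.

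The keratins of simple epithelium did not move as a unit. *KRT7*, a type II keratin of simple ducts and a common marker of ovarian carcinoma, was at 346 CPM (339.6 to 353) in Ctrl, 942 (932 to 953) at 1-day, 1080 (1069 to 1091) at 3-day and 881 (869 to 892) at 7-day. It was higher in all 3 treated libraries, by log2 ratios of 1.44 (1.41 to 1.48), 1.64 (1.61 to 1.67) and 1.35 (1.31 to 1.38). *KRT19*, the smallest type I keratin, went the other way. It was at 1178 CPM (1165 to 1190) in Ctrl, 989.5 (979 to 1000) at 1-day, 519 (511 to 527) at 3-day and 581 (572 to 590.4) at 7-day. The log2 ratio was −0.25 (−0.27 to −0.23) at 1-day, −1.18 (−1.21 to −1.16) at 3-day and −1.02 (−1.05 to −0.99) at 7-day, so that *KRT19* was called lower at 3-day and sat at the 2-fold limit at 7-day. The level of *KRT7* over that of *KRT19* was 0.294 before treatment and then 0.952, 2.08 and 1.52, and their order therefore turned round after the first day. *KRT7* overlaps *KRT86* by 2887 bases on the same strand. No stretch of 64 bases in the last 500 bases of the *KRT7* transcript occurs in a transcript of another gene. An effect of the overlap on the *KRT7* level was not tested.

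*KRT8* and *KRT18*, the type II and type I partners of the primary simple epithelial filament, were both abundant throughout. *KRT8* was at 1075 CPM (1063 to 1087) in Ctrl, 1495 (1482 to 1509) at 1-day, 1029 (1018 to 1040) at 3-day and 865 (854 to 877) at 7-day. *KRT18* was at 841 CPM (831 to 852), 1698 (1684 to 1712), 1397 (1385 to 1410) and 1376 (1361 to 1390) in the same order. Neither was called at any time. For *KRT18* the log2 ratio to Ctrl was 1.01 (0.99 to 1.03) at 1-day, on the 2-fold limit, then 0.73 (0.71 to 0.75) and 0.71 (0.69 to 0.73). For *KRT8* it was 0.48 (0.46 to 0.50), −0.06 (−0.08 to −0.04) and −0.31 (−0.34 to −0.29). *KRT18* thus rose relative to *KRT8*, and their order turned round between Ctrl and 1-day. The ratio of *KRT18* over *KRT8* was 0.783 (0.77 to 0.796) in Ctrl, 1.14 (1.12 to 1.15) at 1-day, 1.36 (1.34 to 1.38) at 3-day and 1.59 (1.56 to 1.62) at 7-day. There was no overlap between the counting intervals of any pair of libraries. Of the windows of 64 bases in the last 500 bases of the *KRT18* transcript, 20.4% also occur in another gene, mostly its processed pseudogenes, and for *KRT8* the share is 11.2%, so reads from there can be lost or assigned elsewhere. The annotated genes also overlap by 1084 bases on opposite strands.

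*KRT20*, a type I keratin of intestinal epithelium, was low in Ctrl and lower afterwards. It was at 13.5 CPM (12.2 to 14.8) in Ctrl, 2.06 (1.6 to 2.62) at 1-day, 0.809 (0.528 to 1.19) at 3-day and 1.54 (1.09 to 2.1) at 7-day. The log2 ratios were −2.71 (−3.10 to −2.33), −4.06 (−4.69 to −3.48) and −3.13 (−3.65 to −2.66). The treated libraries lay well under Ctrl, and 7-day was 1.9-fold above 3-day, a log2 ratio of 0.93 (0.17 to 1.70) that was not called.

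The keratins of stressed and regenerating epithelium gave the largest gain in molecules. Of this group of 6 (*KRT6A*, *KRT6B*, *KRT6C*, *KRT16*, *KRT17* and *KRT75*), 4 were called higher at each time, against 5.99%, 6.65% and 7.96% of all genes tested. None was called lower, against 5.54%, 5.17% and 4.5%, but *KRT6B*, *KRT6C* and *KRT75* had too few Ctrl UMIs to be called lower. Among the 4 called higher, *KRT6B* and *KRT75* had no Ctrl UMI and counted as expressed through treated libraries alone. The group, with *KRT75* in it, was also set with earlier results of these data known, so its count is no independent support. The summed level of the 6 was 465 CPM before treatment and 2604, 2573 and 1358 CPM at the 3 times. *KRT17*, the type I keratin of wound edges and of many carcinomas, made up most of it, at 424 CPM (416 to 431) in Ctrl, 2546 (2529 to 2563) at 1-day, 2503 (2486 to 2520) at 3-day and 1253 (1239 to 1267) at 7-day. These are log2 ratios of 2.59 (2.56 to 2.61), 2.56 (2.54 to 2.59) and 1.56 (1.53 to 1.59), and the 7-day level was 0.501 times that at 3-day, on the 2-fold limit (interval of the log2 ratio −1.02 to −0.98). *KRT16*, its close relative and the wound partner of *KRT6A*, was at 0.867 CPM (0.566 to 1.27), 7.13 (6.25 to 8.11), 5.54 (4.75 to 6.41) and 3.58 (2.89 to 4.4). The course was alike, with log2 ratios of 3.04 (2.45 to 3.68), 2.68 (2.08 to 3.33) and 2.05 (1.41 to 2.74), at a far lower level than that of *KRT17*.

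*KRT6A*, the type II partner of *KRT16* and *KRT17*, rose by less than 2-fold in its level over all cells. It was at 40.01 CPM (37.8 to 42.3) in Ctrl, 48.9 (46.5 to 51.3) at 1-day, 59.05 (56.4 to 61.8) at 3-day and 63.7 (60.6 to 66.9) at 7-day, with log2 ratios of 0.29, 0.56 and 0.67 that were not called. The 1-day ratio was 0.14 (−0.02 to 0.30) in cells thinned to 18000 UMIs and 0.05 (−0.06 to 0.16) as a mean over cells. Without the 10 cells richest in the gene it was 0.11 (−0.02 to 0.24), so the 1-day rise depended on these choices. *KRT6B* had no UMI before treatment and then 35, 10 and 65, which is at least 10.6-fold, 3.11-fold and 25.6-fold higher than a floor of 3 UMIs in Ctrl. The 1-day UMIs came from 8 cells, with 22 of them in 1 cell, whereas those at 7-day came from 35 cells. *KRT6C* stayed at 2 to 5 UMIs. No window of 64 bases at the 3′ ends of *KRT6A*, *KRT6B* or *KRT6C* was shared with another gene.

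*KRT75*, a type II keratin known from the companion layer of the hair follicle and placed here with *KRT6A* to *KRT6C* as their neighbour and close relative, was the clearest gain of the family. No UMI was found in Ctrl, 34 were found at 1-day, 161 at 3-day and 899 at 7-day. The levels were 1.03 CPM (0.715 to 1.44), 5.01 (4.26 to 5.85) and 35.4 (33.1 to 37.8), at least 10.3-fold, 50.1-fold and 354-fold above a Ctrl floor of 3 UMIs. With the exact limit of the 0 in place of this floor, the lower limits of the log2 ratios were 2.99, 5.33 and 8.17. Each step was also called between treated libraries, with log2 ratios of 2.28 (1.74 to 2.86) for 3-day over 1-day and 2.82 (2.58 to 3.07) for 7-day over 3-day. At 1-day the gene was seen in only 8 cells, with 20 of the 34 UMIs in 1 of them, but at 7-day in 177 of 569 cells. Without the 10 cells richest in each gene, the 1-day calls of *KRT75*, *KRT6B* and *KRT79* and the 3-day call of *KRT6B* were lost, whereas the 7-day over 3-day log2 ratio of *KRT75* was 3.41. As *KRT75* and *KRT6B* had UMIs in 8 cells each at 1-day, and *KRT6B* in 7 at 3-day, their losses were fixed in advance.

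**Figure D2:**
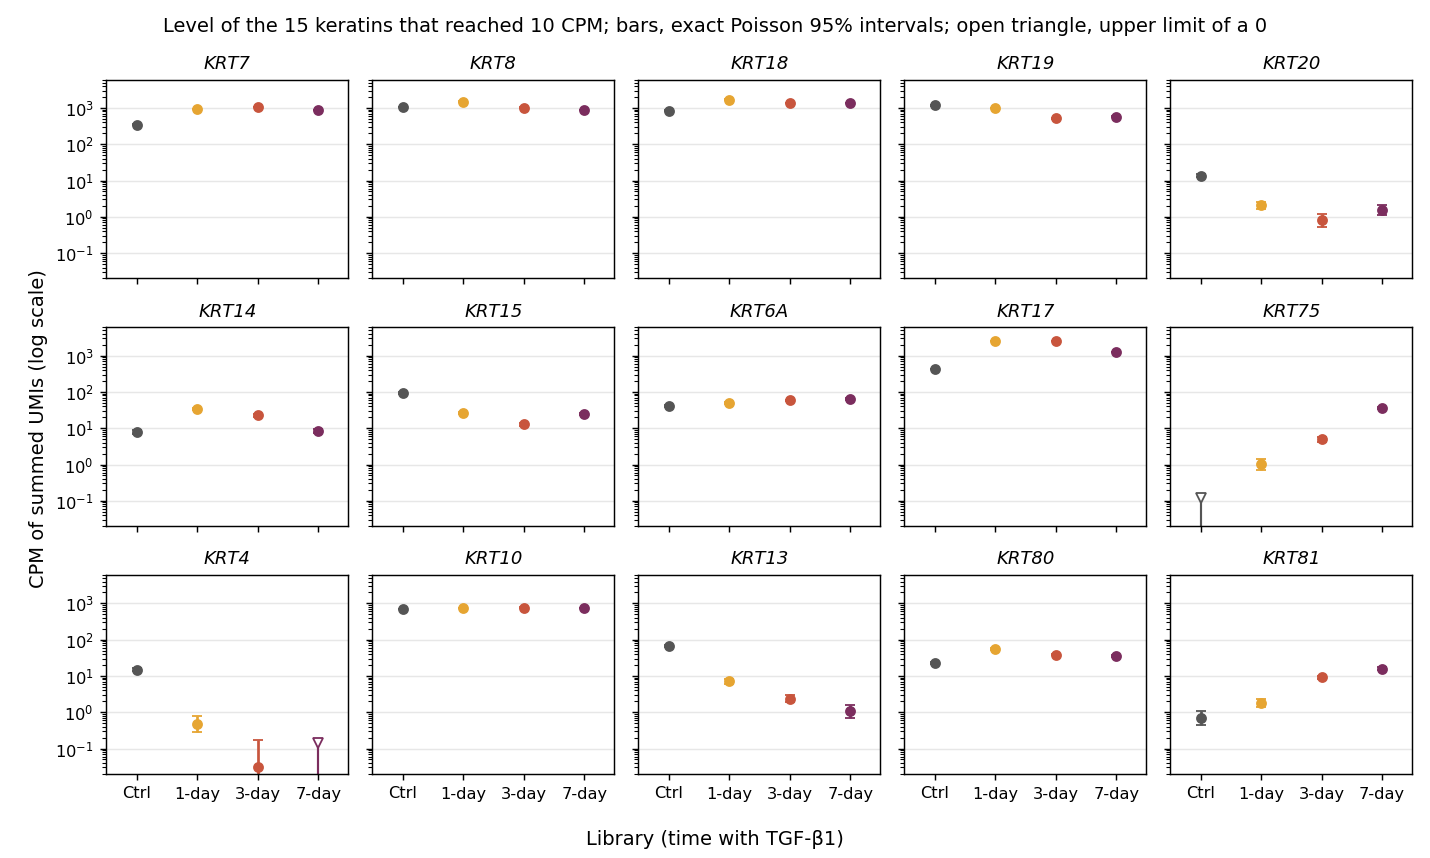
CPM (log axis) of the 15 keratins that reached 10 CPM, in Ctrl, 1-day, 3-day and 7-day, with exact Poisson 95% intervals; open triangles mark the upper limit where no UMI was found. *KRT75* climbs from no UMI to 35.4 CPM, *KRT13* falls from 67.0 to 1.06 CPM, and *KRT10* stays between 709 and 765 CPM.

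The basal keratins *KRT14* and *KRT15*, both type I, moved in opposite directions. *KRT15*, which also marks follicular stem cells, was at 93.8 CPM (90.3 to 97.3) in Ctrl, 26.2 (24.4 to 28) at 1-day, 13 (11.8 to 14.3) at 3-day and 24.6 (22.7 to 26.6) at 7-day. It was called lower at each time, with log2 ratios of −1.84 (−1.95 to −1.73), −2.85 (−3.00 to −2.70) and −1.93 (−2.06 to −1.81), and its level at 7-day was 1.89 times that at 3-day, which was not called. *KRT14* showed a passing rise. It was at 7.97 CPM (6.99 to 9.04) in Ctrl, 33.5 (31.6 to 35.5) at 1-day, 22.5 (20.9 to 24.2) at 3-day and 8.55 (7.45 to 9.77) at 7-day, with log2 ratios of 2.07 (1.87 to 2.28), 1.5 (1.28 to 1.71) and 0.10 (−0.17 to 0.37). Its fall from 3-day to 7-day, a log2 ratio of −1.39 (−1.62 to −1.17), was itself called. In Ctrl, 59.4% of the *KRT14* UMIs came from 10 cells and 58 of 239 from 1 cell, and *KRT14* stood at 20.2 CPM in Ctrl cells in G1 beside 3.74 in G2M. Among G1 cells alone its log2 ratio was 0.82 at 1-day, 0.35 at 3-day and −0.95 at 7-day and was no longer called, while without those 10 cells of each library it was 2.88, 2.43 and 0.70.

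Of the 9 expressed keratins of stratified and specialised epithelium, *KRT4* and *KRT13*, the type II and type I partners of mucosal epithelium, were lost together. *KRT13* was at 67 CPM (64.1 to 69.97) in Ctrl, 7.04 (6.16 to 8.01) at 1-day, 2.37 (1.86 to 2.96) at 3-day and 1.06 (0.701 to 1.55) at 7-day. *KRT4* was at 14.6 CPM (13.3 to 16) in Ctrl, from 438 UMIs, and then had 16 UMIs at 1-day, 1 at 3-day and none at 7-day. Unlike *KRT15*, *KRT19* and *KRT20*, whose levels at 7-day stood above those at 3-day, *KRT13* and *KRT4* had their lowest values at 7-day, though neither was called between 3-day and 7-day. The log2 ratios of *KRT13* were −3.25 (−3.45 to −3.05), −4.82 (−5.17 to −4.49) and −5.98 (−6.58 to −5.43), a 63.0-fold lower level at 7-day. Those of *KRT4* were −4.91 (−5.73 to −4.19) at 1-day and −8.87 (−14.18 to −6.39) at 3-day, and at 7-day its level was at least 123.5-fold lower, against a floor of 3 UMIs. Their decrease from 1-day to 3-day was also called, at −1.57 (−1.97 to −1.19) for *KRT13* and −3.96 (−9.35 to −1.28) for *KRT4*. Without the 10 cells richest in the gene, the log2 ratio of *KRT13* was again −1.57 but its interval was wider (−2.21 to −0.96), so that it was no longer called. *KRT4*, of whose 1-day UMIs 87.5% came from 10 cells, was then not called either.

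*KRT10*, the type I keratin of differentiating epidermis, had the steadiest level of any abundant keratin. It was at 709 CPM (699 to 718) in Ctrl, 751 (741 to 760.0) at 1-day, 765 (755 to 774) at 3-day and 753.5 (743 to 764) at 7-day, with log2 ratios of 0.08 to 0.11. *KRT80*, a widely expressed type II keratin found near desmosomes, was at 23.1 CPM (21.4 to 24.9), 55 (52.5 to 57.5), 38.9 (36.8 to 41.1) and 35.7 (33.4 to 38.0). It was called at 1-day alone, with log2 ratios of 1.25 (1.12 to 1.38), 0.75 (0.61 to 0.89) and 0.62 (0.48 to 0.77). *KRT79*, a type II keratin of sebaceous and follicular ducts, was seen in 0, 25, 7 and 1 UMIs. The 1-day call of *KRT79*, at least 7.59-fold above the Ctrl floor, rests on 13 cells, 1 of which held 13 of the UMIs. The corneal *KRT3* had 2 UMIs in Ctrl and 13 at 1-day, 9 of them in 1 cell, and none later, and was called lower at 3-day than at 1-day. *KRT9*, *KRT76* and *KRT78* stayed at 8 or fewer UMIs.

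Keratins of hair gave low but growing levels. Of 25 hair and inner root sheath keratins, 7 were expressed, and their summed level was 2.03 CPM before treatment and 3.25, 12.8 and 21.2 CPM at the 3 times. *KRT81*, a type II hair cortex keratin that is also seen in carcinoma lines, led them at 0.700 CPM (0.433 to 1.07), 1.82 (1.39 to 2.34), 9.09 (8.07 to 10.2) and 16.0 (14.5 to 17.7). It was called at 3-day and 7-day, at log2 ratios of 3.70 (3.06 to 4.41) and 4.52 (3.89 to 5.23). Much of the 3-day value came from few cells: 160 of its 292 UMIs came from 1 cell and 72.3% from 10 cells. A UMI was found in 68 of 705 cells at 3-day, beside 9 of 933 in Ctrl. Without the 10 cells richest in the gene, *KRT81* was still called at 3-day and was then called at 1-day as well. All of its Ctrl UMIs lay in 9 cells, however, so that this step left none in Ctrl. Both calls were thus set against a Ctrl emptied by the step itself. Among G1 cells alone the log2 ratio was −0.33 at 1-day, 0.77 at 3-day and 3.10 at 7-day, so that the 7-day call held and the 3-day call did not. *KRT81* overlaps *KRT86* by 5622 bases on the opposite strand, but *KRT86* had 5 to 13 UMIs in every library.

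*KRT31* and *KRT34*, type I hair keratins whose genes lie next to each other, also appeared with treatment. *KRT31* had 3 UMIs before treatment and then 33, 101 and 63, spread over 31, 87 and 55 cells with at most 3 UMIs in any of them. It was called at each time, at log2 ratios of 3.32 (1.65 to 5.67), 4.97 (3.39 to 7.28) and 4.63 (3.02 to 6.95). *KRT34* had 0, 1, 7 and 32 UMIs and was called at 7-day, at least 12.6-fold higher than the Ctrl floor. *KRT33B* had UMIs at 7-day alone, 6 in all. *KRT32*, at 3 to 15 UMIs, and *KRT83*, at 2 to 8, were not called.

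Between treated libraries fewer keratins were called. From 1-day to 3-day, 3 were higher (*KRT31*, *KRT75* and *KRT81*), against 2.59% of all genes tested, and 3 lower (*KRT3*, *KRT4* and *KRT13*), against 2.07%. From 3-day to 7-day, 3 were higher (*KRT6B*, *KRT34* and *KRT75*), against 1.23%, and *KRT14* was the 1 keratin called lower, against 0.558%. *KRT75* was the keratin called higher in both steps. Of the 11 keratins ever higher than Ctrl, 9 were called at 1-day already, as were 4 of the 5 ever lower. The like share over all genes was not counted. Of the 9, *KRT6B*, *KRT75* and *KRT79* lost their 1-day call without the 10 cells richest in the gene. *KRT14*, *KRT31* and *KRT79* lost theirs among G1 cells alone, and *KRT31* and *KRT75* when cells were thinned to 18000 UMIs.

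Summed over the family, keratins took more of the transcriptome after treatment, not less. They were at 4836 CPM (4812 to 4861) in Ctrl, 8609 (8578 to 8641) at 1-day, 7454 (7424 to 7484) at 3-day and 5907 (5877 to 5937) at 7-day. These are 1.78, 1.54 and 1.22 times the Ctrl level. Most of the rise was that of *KRT17* alone, at 424, 2546, 2503 and 1253 CPM of these sums in the same order. Per cell, the median share of UMIs on keratins was 0.433%, 0.788%, 0.654% and 0.523%, with central 90% ranges of 0.252 to 0.888%, 0.407 to 1.57%, 0.373 to 1.51% and 0.316 to 1.11%, so that single cells of all libraries overlapped widely. Type I keratins exceeded type II throughout, by a ratio of 2.22 (2.2 to 2.25) in Ctrl, 2.38 (2.36 to 2.4) at 1-day, 2.35 (2.33 to 2.38) at 3-day and 2.11 (2.09 to 2.13) at 7-day.

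The leading gene of the keratin pool was *KRT19* in Ctrl, *KRT17* at 1-day and 3-day, and *KRT18* at 7-day. In Ctrl, *KRT19* held 24.35% of keratin UMIs, *KRT8* 22.2%, *KRT18* 17.4% and *KRT17* 8.76%. At 1-day *KRT17* led with 29.6%, and at 3-day it held 33.6% while *KRT19* had dropped to 6.96%. At 7-day *KRT18* led with 23.3%, followed by *KRT17* with 21.2% and *KRT7* with 14.9%. The 6 abundant keratins made up most of the pool in every library, so that the large folds of *KRT75*, *KRT81*, *KRT4* and *KRT13* concerned at most 1.38% of keratin molecules each.

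**Figure D3:**
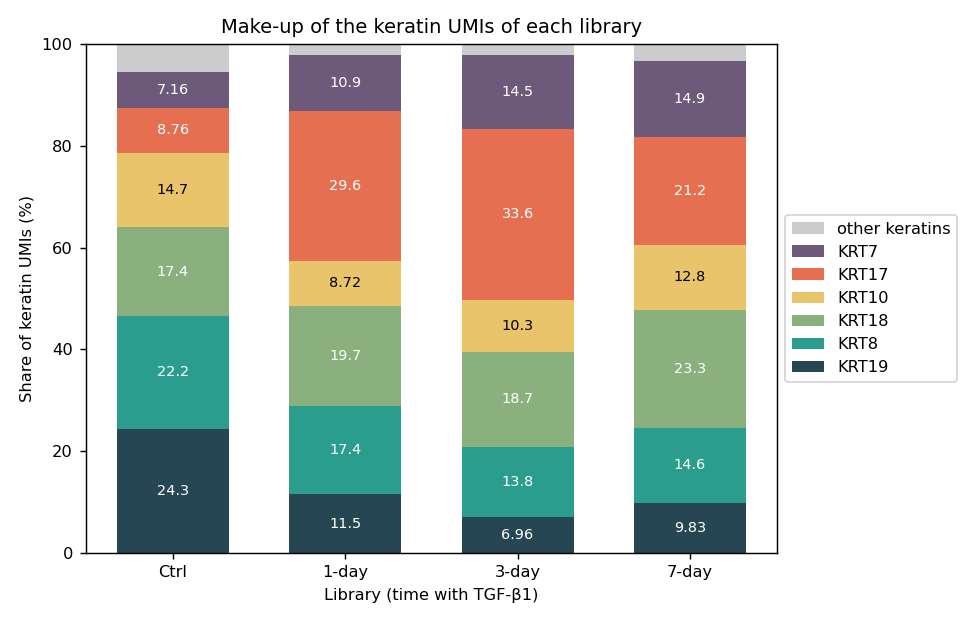
Share of all keratin UMIs (%) held by the 6 abundant keratins and by all others together, in each library. *KRT19* is the largest part in Ctrl (24.35%), *KRT17* at 1-day (29.6%) and 3-day (33.6%), and *KRT18* at 7-day (23.3%).

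To see whether these differences lay in how many cells carried a keratin, cells were thinned to a common 18000 UMIs. This kept 844, 900, 677 and 549 cells of the 4 libraries in order of time and dropped 89, 37, 28 and 20 shallower ones. Shares carry exact binomial intervals, and a share due to free RNA could not be measured, as no cell type without keratins is present. The abundant keratins were found in at least 98.1% of cells of every library, with 1 exception. *KRT17* had a UMI in 81.9% (79.1 to 84.4) of Ctrl cells and in 99.6% or more of treated cells (unthinned, 87.7% and 100%), so that a part of Ctrl cells had little or none of it.

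The keratins of the middle tier were found in a part of the cells at most. A cell without a UMI can still express a gene of low level, and whether these shares differ from what the level alone gives was not tested. *KRT13* was found in 28.1% (25.1 to 31.2), 5.67% (4.25 to 7.38), 2.66% (1.58 to 4.17) and 1.28% (0.514 to 2.61) of thinned cells and *KRT4* in 11.3% (9.2 to 13.6), 0.778% (0.313 to 1.6), 0% and 0%. The unthinned shares of *KRT13* were 36.0%, 9.07%, 5.67% and 3.34%, and of *KRT4* 15.2%, 1.28%, 0.142% and 0%, where 0 of 569 cells, at a floor of 3 counts, allows a share of cells with a UMI of up to 0.527%. The loss thus showed in the number of cells with a UMI. *KRT15* was found in 75.1% (72.1 to 78.0), 33.4% (30.4 to 36.6), 19.5% (16.6 to 22.7) and 31.0% (27.1 to 35.0), and *KRT20* in 20.1% (17.5 to 23), 3.56% (2.44 to 4.98), 1.62% (0.814 to 2.89) and 2.55% (1.4 to 4.24). Unthinned, these were 86.9%, 49.2%, 38.7% and 54.8% for *KRT15* and 28.4%, 5.23%, 3.26% and 5.45% for *KRT20*.

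Gains showed in cell numbers as well. *KRT75* was found in 0%, 0.556% (0.181 to 1.29), 5.32% (3.75 to 7.29) and 21.3% (18.0 to 25.0) of thinned cells, and *KRT81* in 0.829% (0.334 to 1.7), 2.22% (1.36 to 3.41), 6.5% (4.76 to 8.63) and 16.8% (13.7 to 20.1). Unthinned, *KRT75* was in 0%, 0.854%, 8.94% and 31.1% of cells and *KRT81* in 0.965%, 3.52%, 9.64% and 28.3%, and by the same floor 0 of 933 Ctrl cells allows a share of cells with a *KRT75* UMI of up to 0.322%. Either of these keratins was present in 33.7% (29.8 to 37.8) of thinned 7-day cells, beside 0.829% (0.334 to 1.7) of Ctrl cells. *KRT14* was found in 5.33% (3.92 to 7.07), 19.4% (16.9 to 22.2), 19.2% (16.3 to 22.4) and 10.8% (8.28 to 13.6), and *KRT16* in 0.948% (0.41 to 1.86), 11.7% (9.64 to 13.9), 11.5% (9.21 to 14.2) and 5.28% (3.57 to 7.5). Unthinned, these were 7.82%, 25.8%, 30.2% and 17.4% for *KRT14* and 1.72%, 20.3%, 20.6% and 12.5% for *KRT16*. The share of cells with a *KRT14* UMI was thus higher at 7-day than in Ctrl at nearly equal CPM, beside a Ctrl level of which 59.4% came from 10 cells. *KRT6A*, whose level over all cells was not called, was found in 25.5% (22.6 to 28.6), 23.1% (20.4 to 26.0), 28.7% (25.3 to 32.2) and 39.5% (35.4 to 43.75) of thinned cells. Unthinned, its shares were 33.0%, 30.5%, 41.7% and 58.7%.

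**Figure D4:**
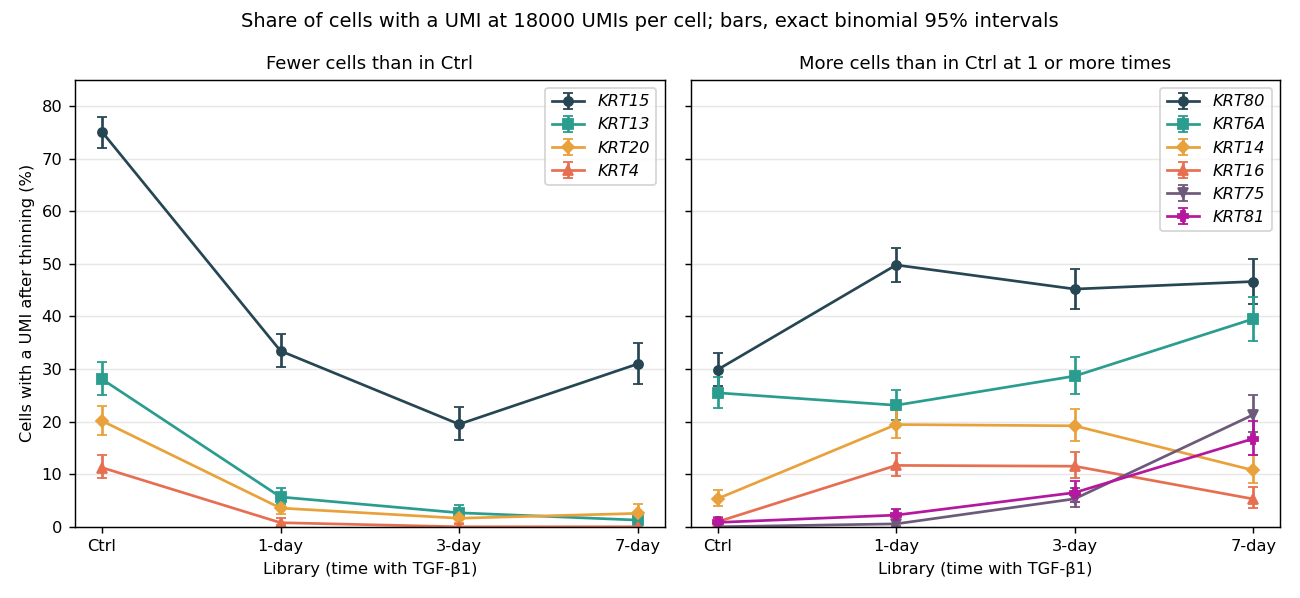
Share of cells (%) with a UMI of a keratin after thinning to 18000 UMIs per cell, with exact binomial 95% intervals, for 4 keratins found in fewer cells after treatment (left) and 6 found in more cells at some time (right). *KRT15* drops from 75.1% to 19.5% at 3-day, while *KRT75* and *KRT81* reach 21.3% and 16.8% at 7-day.

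Within libraries, some keratins were found in the same cells and others apart. In thinned Ctrl cells, *KRT13* was found in 44.2% (37.4 to 51.1) of 215 cells with *KRT6A* and in 22.6% (19.4 to 26.1) of 629 cells without it, and *KRT17* in 96.3% (92.8 to 98.4) and 77.0% (73.5 to 80.2). *KRT4* went the other way, being found in 5.12% (2.58 to 8.97) of the cells with *KRT6A* and in 13.4% (10.8 to 16.3) of those without. The mucosal partners *KRT4* and *KRT13* were not found together more often: *KRT13* was in 18.9% (11.6 to 28.3) of 95 cells with *KRT4* and in 29.2% (26.0 to 32.6) of 749 cells without. At 7-day, *KRT81* was found in 20.5% of cells with *KRT75* and in 15.7% of those without, with intervals that overlap. Across thinned cells, Pearson's r of log counts between *KRT8* and *KRT18* was 0.58 in Ctrl (844 cells), 0.77 at 1-day (900), 0.70 at 3-day (677) and 0.68 at 7-day (549), the highest of the pairs of keratins computed in each library. These are descriptions of cells that share a library and a capture, and cells are not replicates.

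Some keratins differed between cell cycle phases, whose shares differed between libraries. *KRT6A* was at 98.9 CPM in G1 and 24.6 in G2M at 3-day, and at 104.9 and 29.7 at 7-day, beside 45.8 and 39.3 in Ctrl. Among G1 cells alone its log2 ratio to Ctrl was 1.11 at 3-day and 1.2 at 7-day, and at 7-day it was then called. *KRT17* was at 539 CPM in G1 and 369.7 in G2M in Ctrl and at 1673 and 907 at 7-day, and among G1 cells its log2 ratios were 2.32, 2.51 and 1.63. *KRT75* at 7-day was at 37.9 CPM in G1, 34.1 in S and 33.7 in G2M, nearly the same in each phase. The part of phase in the differences between libraries was not tested further.

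Along the chromosomes, several keratins with like calls lay side by side. The type I genes on chromosome 17 run in the order *KRT13*, *KRT15*, *KRT19*, *KRT9*, *KRT14*, *KRT16* and *KRT17* over 124 kb (41500981 to 41624842, GRCh38, from GENCODE 44), all on the minus strand. The leading 3 were each called lower at some time and the last 3 each higher, with the hardly expressed *KRT9* (at most 7 UMIs) between them. Of these, *KRT19* was called at 3-day alone, and *KRT14* lost its calls among G1 cells. This run was picked with the calls in view, and like runs among other genes were not counted. On chromosome 12, *KRT75*, *KRT6B*, *KRT6C* and *KRT6A* lie in a row over 69.2 kb, of which *KRT75* and *KRT6B* were called, and *KRT4* was the 1 type II keratin ever called lower than Ctrl, while the other 4 are type I genes on chromosome 17. *KRT18*, the only type I keratin outside chromosome 17, lies next to *KRT8*. With 29 genes and neighbours that share sequence and history, this order is given as a description.

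**Figure D5:**
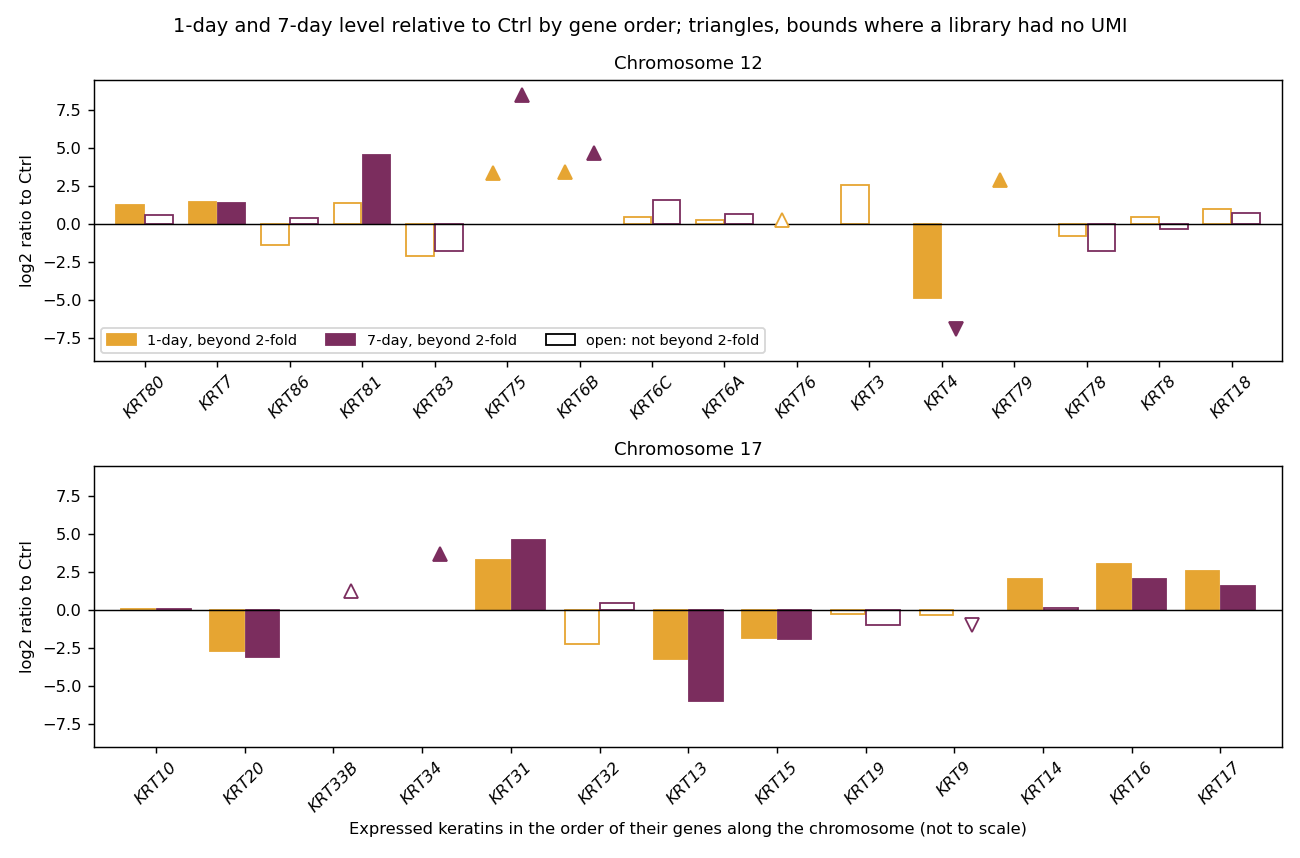
Log2 ratio of CPM to Ctrl at 1-day and 7-day for expressed keratins, in gene order on chromosome 12 (top) and chromosome 17 (bottom); filled bars and triangles were beyond 2-fold, open ones not, and triangles are bounds where a library had no UMI. On chromosome 17, *KRT13* and *KRT15* point down and *KRT16* and *KRT17* up at both times. *KRT14* is beyond 2-fold at 1-day but not at 7-day, and 3-day, where it was also called higher, is not drawn.

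Genes that act with keratins were read from lists, each given by its counts and at most 5 members of highest level. Of 15 desmosome plaque and plakin genes, which tie keratin filaments to junctions, 4, 2 and 1 were called higher at the 3 times, against 5.99%, 6.65% and 7.96% of all genes tested, and 0, 1 and 1 lower, against 5.54%, 5.17% and 4.5%. *JUP* (plakoglobin) was at 159.5, 436, 315 and 289 CPM and *DSP* (desmoplakin) at 53.9, 133, 70.1 and 60.3, both called higher at 1-day alone, whereas *PLEC*, *DSG2* and *PKP3* were not called. Of 11 tested among 15 other intermediate filament genes, 0, 0 and 1 were higher and 1, 2 and 1 lower, against the same shares of all genes. *SYNM* (synemin) was at 19.2, 37.8, 6.94 and 5.16 CPM and was lower at 3-day and 7-day, *LMNB1* (lamin B1) at 20.4, 7.07, 13.4 and 14.8 CPM was lower at 1-day, and *LMNA*, *LMNB2* and *NEFL* were not called. *VIM*, the vimentin gene, named here after its values were seen, had 0, 8, 5 and 6 UMIs. Of 9 tested among 15 cornified envelope genes, 1, 0 and 1 were higher and 0, 2 and 2 lower, against the same shares of all genes. The most abundant, *CSTA* (cystatin A), was at 19.5, 16.1, 14.5 and 20.1 CPM and was not called, nor was *TGM1* at 0.311 to 0.880 CPM. *SPRR1B* was at 1.70, 3.88, 0.498 and 0.158 CPM and lower at 7-day, *SPRR3* at 2.53, 1.70, 0.249 and 0.0394 CPM and lower at 3-day and 7-day, and *LCE3D* at 0.433, 0.152, 1.06 and 1.93 CPM and higher at 7-day.

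Of 17 tested among 18 regulators of epithelial genes, 2, 0 and 0 were called higher, against 5.99%, 6.65% and 7.96% of all genes tested, and 3, 3 and 2 lower, against 5.54%, 5.17% and 4.5%. *ELF3*, an epithelial ETS factor, was at 269, 48.0, 28.7 and 52.8 CPM and lower at each time, and *KLF5* was at 122.5, 39.5, 39.9 and 61.5 CPM and lower at 1-day and 3-day. *TP63*, the basal epithelial factor that controls *KRT14* and *KRT5* in skin, was at 65.6, 146, 106 and 64.8 CPM, higher at 1-day alone. *TFAP2A* and *ESRP1* were not called. Of 10 tested among 11 genes used as a reference for EMT and TGF-β1 signalling, 5, 7 and 8 were higher and none lower, against the same shares, with *PMEPA1* at 66.8, 1501, 1385 and 962 CPM, *TGFBI* at 14.5, 476, 471 and 300.5, *FN1* at 48.1, 81.1, 255.7 and 232, and *SNAI2* at 3.80, 50.7, 57.5 and 39.1. Like *KRT17*, *PMEPA1* had a lower level at 7-day than at 1-day.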

How the data were processed

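Single-cell suspensions of OVCA420 were processed with the 10x Genomics 3′ kit (v3), and the authors aligned reads to GRCh38 with Cell Ranger, version 2.0.1 per the labels. Cell Ranger counts only reads assigned to 1 gene. The deposited values are raw UMI counts per gene and cell, without normalization. Of 10710 barcodes listed, the first 3170 in barcode order were read (572 to 945 per library), so that the sums are part of each library. Cells with more than 200 genes and at most 20% mitochondrial UMIs were retained (3144). Scrublet (scanpy 1.11.5) marked 9 to 11 cells per library as doublets, which were retained except in an alternative. Phases used the lists of Seurat 5.3.0.

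UMIs were summed per library. CPM have exact Poisson, log2 ratios exact conditional and shares of cells exact binomial (Clopper-Pearson) 95% intervals, for counting error only. Genes with 3 or fewer UMIs in every library were taken as not expressed, and a 0 was replaced by a floor of 3 UMIs for bounds. Every expressed keratin is named, those reaching 10 CPM with all levels. The 5 members of highest level in each other list are named, except 1 gene that is not reported here. The intervals and calls were checked on simulated library sums with counting error alone. Changes were simulated for genes of high count only, and UMIs gathered in few cells were not simulated. The members, lists and rules were chosen with earlier results of these data known. The alternatives numbered 13, with size factors from edgeR 4.0.16 (TMM) and medians of ratios among them. Gene positions are from GENCODE 44, matched by Ensembl identifier.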

Additional observations from a re-analysis of the deposited data

Results flagged for a closer look

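The log2 ratio of *KRT8* to Ctrl lay on opposite sides of 0 at different times. It was 0.48 at 1-day, −0.06 at 3-day and −0.31 at 7-day, from 1 library each. These differences were not tested, and none passed 2-fold.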

How the results depend on the processing

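Across the alternatives, 110 counts of called keratins stayed within 1.5 times the value given and 20 did not. Of the log2 ratios, 440 stayed within the counting interval of the value given and 180 moved out of it, and of the shares of cells with a UMI, 24 stayed within theirs after thinning and 36 did not. No called log2 ratio changed sign. A 4-fold limit left 5 keratins higher than Ctrl at each time, against 1.86%, 2.27% and 2.81% of all genes tested. It left 0 higher and 0 lower for 3-day over 1-day, against 0.407% each, and 0 lower for 7-day over 3-day, against 0.0669%. A 1.5-fold limit gave 7 lower for 3-day over 1-day, against 4.93% of all genes. For 7-day over 3-day it gave 6 higher and 2 lower, against 3.04% and 1.52%. With genes at 10 CPM or more alone, 5, 5 and 4 were higher than Ctrl at 1-day, 3-day and 7-day, against 7.71%, 8.59% and 9.36% of all genes at that level. For 7-day over 3-day 1 was higher, against 0.965%. Among G1 cells alone, 5 were higher than Ctrl at 3-day, against 5.18% of all genes. There 0 were lower for 3-day over 1-day and 0 for 7-day over 3-day, against 1.61% and 0.47%. For 3-day over 1-day, 1 was lower after thinning, against 1.46% of all genes. Without the 10 richest cells per gene 0 were lower, and the share over all genes was not counted there. *KRT31* lost its 1-day and 7-day calls among G1 cells. Thinning lost the higher calls of *KRT31* and *KRT75* at 1-day, *KRT6B* at 3-day and *KRT16* at 7-day, and a mean over cells that of *KRT14* at 3-day. Medians of ratios and TMM both gave 2 lower for 7-day over 3-day, against 0.664% and 0.686% of all genes. Both added *KRT18* to the higher calls at 1-day and *KRT19* to the lower calls at 7-day. These scalings moved log2 ratios to Ctrl by at most 0.10. Apart from the limits on fold and level, the cause was not tested. No paired analysis was possible because there is 1 library for each time. Leaving out a replicate was not possible for the same reason. Depth limits the 14 keratins under 10 CPM, whose calls rest on 10 to 235 UMIs in the higher library.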
